A study of Homo sapiens with 8 samples.

Results

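The genes described here are 10 components of bone morphogenetic protein (BMP) signalling, taken by symbol: the ligand genes BMP2, BMP4 and BMP7, the type I receptor gene BMPR1A, the pathway inhibitors BAMBI and SMAD6, and the target genes ID1, ID2, ID3 and ID4. All 10 were among the 17546 genes of the deposited table, matched by Ensembl gene ID. The cells were H1, a human embryonic stem cell line, transduced with GFP-marked lentivirus carrying an shRNA against NAT10 (NAT10 knockdown, 4 libraries) or a negative control shRNA (control shRNA, 4 libraries). NAT10 is the acetyltransferase that makes N4-acetylcytidine in RNA. Cells of both groups were cultured for 48 h after transduction, enriched for GFP and then grown under 0.5 ug/ml puromycin in TeSR-E8, and their poly(A) RNA was sequenced. No rescue group was analysed here, so an effect of lower NAT10 cannot be told apart from an off-target effect of the shRNA.

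BMP ligands are secreted dimers that bring type I and type II receptor kinases together. The type I receptor phosphorylates SMAD1, SMAD5 and SMAD9, which enter the nucleus with SMAD4 and switch on targets such as the ID genes. ID proteins hold a helix-loop-helix without a DNA-binding region and keep E proteins from binding DNA. In human embryonic stem cells BMP4 is widely used to drive differentiation towards trophoblast-, amnion- or mesoderm-like cells, and in mouse embryonic stem cells Id genes are known to act in self-renewal.

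The values are normalized counts, which are reads per gene divided by a size factor for each library. Libraries held 16.2 to 16.3 M reads in NAT10 knockdown and 15.6 to 16.0 M reads in control shRNA. NAT10 itself averaged 1627 ± 25.5 normalized counts in NAT10 knockdown and 2178 ± 98.8 in control shRNA (SD, n = 4 each), which is 74.7% of the control level, so the knockdown was partial. Markers of human embryonic stem cells were present, with 12 of 12 measured and summed levels of 8852 to 9102 CPM (counts per 1e6 reads) in NAT10 knockdown and 7600 to 7856 CPM in control shRNA; POU5F1 was counted at only 17.2 ± 7.11 normalized counts in NAT10 knockdown and 24.0 ± 5.63 in control shRNA (SD, n = 4 each). Whether the replicates of a group were grown separately is not stated, and the p-values below therefore reflect library-to-library spread that may be purely technical.

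In NAT10 knockdown cells the ligand gene BMP4 was 4.18-fold as high as in control cells, and ID1 and ID4 were 2.03-fold and 1.92-fold as high. BMP2 and BMPR1A also rose, while the ligand BMP7, the intracellular inhibitor SMAD6 and the target ID3 fell. The ID genes therefore did not move as a block: ID1 and ID4 rose, ID3 fell and ID2 did not pass the test. At an adjusted p under 0.05 (limma on log2 values, Benjamini-Hochberg over all genes) 6 of the 10 genes were higher and 3 were lower in NAT10 knockdown. Over all genes 64.7% passed the same test, 32.3% higher and 32.4% lower. The groups did not overlap for 9 of the 10 genes, against 56.7% of all genes. The median log2 fold change of the 10 genes was 0.24, against 0.0013 over all genes.

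Scaling mattered for the small changes. With library totals in place of the size factors, the median of all genes moved to -0.11 on the log2 scale, the share of called genes that were higher became 35.7%, against 49.9% with the size factors, and 5 of the 10 genes were higher and 4 lower. BAMBI lost its call and ID2 gained one under this scaling; the other 8 kept their direction and their call.

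**Figure D1:**
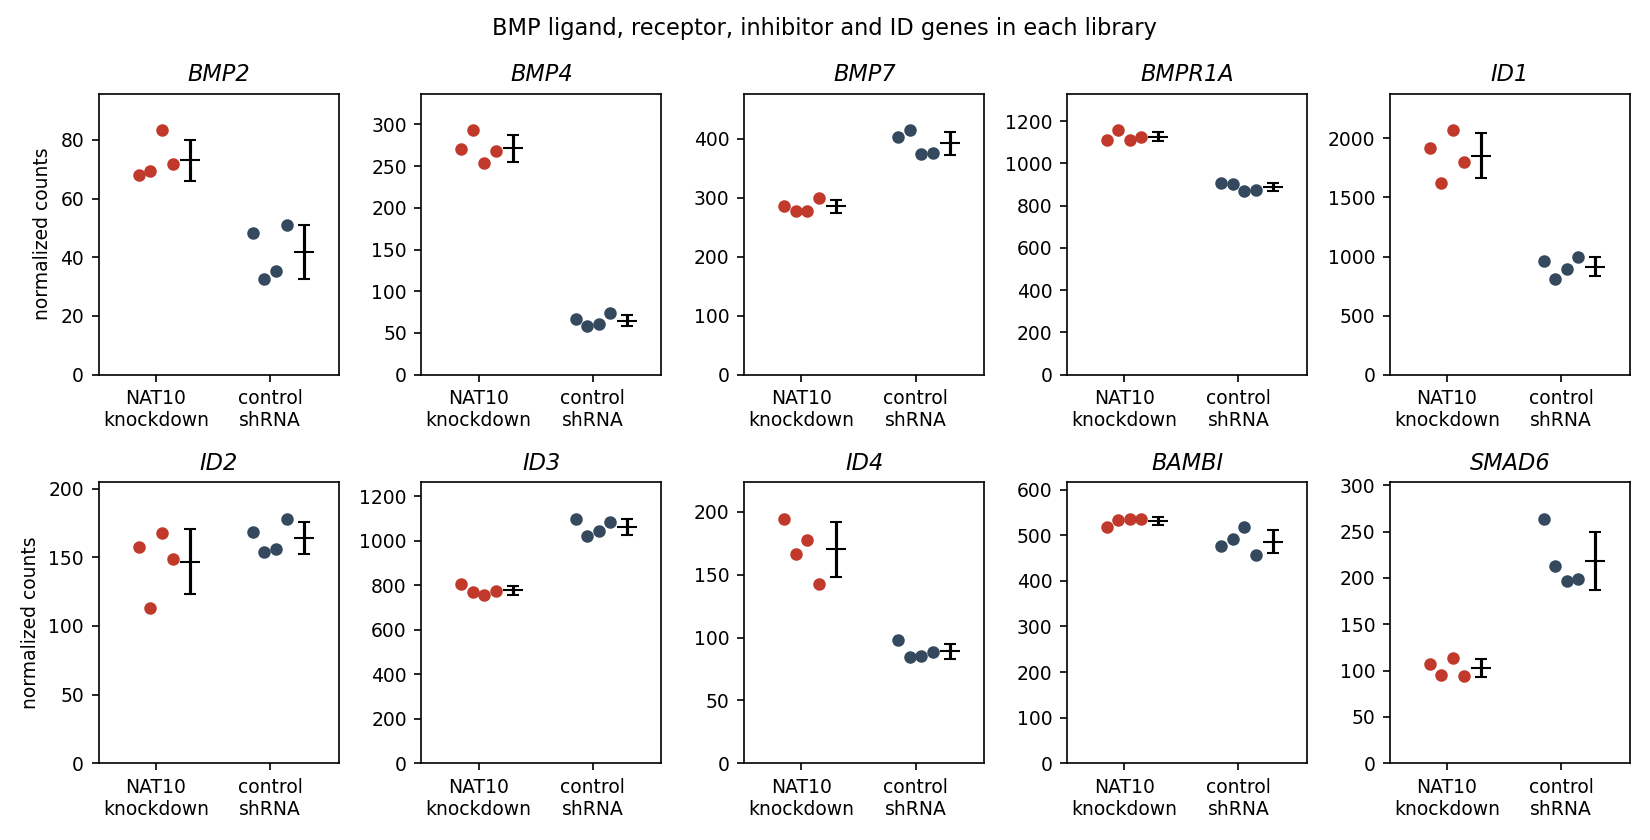
Normalized counts (vertical axes, each starting at 0) of the 10 genes in the 4 NAT10 knockdown libraries (red, left) and the 4 control shRNA libraries (blue, right); points are libraries in replicate order, and the bar beside them is the mean with its SD. BMP4 lies between 254 and 293 in NAT10 knockdown and between 58.5 and 74.1 in control shRNA, while the ID2 points of the 2 groups overlap.

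Among the ligands, BMP4 (ENSG00000125378, minus strand of hg38 chromosome 14, bases 53949736 to 53958761) had 271, 293, 254 and 268 normalized counts in NAT10 knockdown replicates 1 to 4, against 66.7, 58.5, 60.3 and 74.1 in control shRNA replicates 1 to 4. Every NAT10 knockdown library was far above every control library. The means were 271 ± 16.2 and 64.9 ± 7.08 (NAT10 knockdown and control shRNA, SD, n = 4 each), a log2 fold change of 2.05 with a standard error of 0.0966 (limma, adjusted p = 1.52e-24). In size this change exceeded that of 98.9% of all genes. The 3 genes whose values followed those of BMP4 most closely over the 8 libraries, out of 12508 genes with a gene symbol and a mean of at least 50 normalized counts, were AHNAK, TAGLN and HS3ST2. Their root mean square distances from BMP4 were 0.0817, 0.0985 and 0.103 on the log2 scale, after the control mean of each gene was subtracted.

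BMP2 (ENSG00000125845, plus strand of chromosome 20, bases 6767664 to 6780280), a ligand closely related to BMP4, had 67.9, 69.4, 83.3 and 71.8 normalized counts in NAT10 knockdown replicates 1 to 4, against 48.3, 32.7, 35.4 and 51.0 in control shRNA replicates 1 to 4. The groups did not overlap, but this was the least abundant of the 3 ligands, and control replicates 1 and 4 were above control replicates 2 and 3. The log2 fold change was 0.81 with a standard error of 0.150 (limma, adjusted p = 5.62e-06). BMP7 (ENSG00000101144, minus strand of chromosome 20, bases 57168748 to 57266629), a ligand of another BMP subgroup, moved the other way. It had 286, 277, 277 and 299.5 normalized counts in NAT10 knockdown replicates 1 to 4, against 402, 414, 374 and 376 in control shRNA replicates 1 to 4, and all NAT10 knockdown libraries were below all control libraries. BMP7 fell by 0.46 on the log2 scale with a standard error of 0.0632 (limma, adjusted p = 1.32e-08).

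Levels of different genes were compared per kilobase of merged GENCODE exons, a length that counts exons of all annotated isoforms. On this scale BMP4 made up 54.7% ± 2.13 of the summed BMP2, BMP4 and BMP7 level in NAT10 knockdown and 20.04% ± 1.72 in control shRNA (SD, n = 4 each). BMP7 made up 32.7% ± 1.35 in NAT10 knockdown and 68.9% ± 3.65 in control shRNA (SD, n = 4 each). Per kilobase the leading ligand transcript was thus BMP4 in all 4 NAT10 knockdown libraries and BMP7 in all 4 control libraries. The order in NAT10 knockdown rests on the exon lengths, 3082 bases for BMP4 and 5418 for BMP7: in normalized counts with no length correction BMP7 was above BMP4 in 3 of the 4 NAT10 knockdown libraries and in all 4 control libraries. The share of BMP2 was 12.6% ± 1.44 in NAT10 knockdown and 11.03% ± 2.05 in control shRNA (SD, n = 4 each). The summed level of the 3 ligands was 161 ± 3.70 normalized counts per kb in NAT10 knockdown and 105 ± 4.76 in control shRNA (SD, n = 4 each).

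BMPR1A (ENSG00000107779, plus strand of chromosome 10, bases 86756601 to 86932838), a type I receptor for BMP2 and BMP4, had 1111, 1157, 1112 and 1124 normalized counts in NAT10 knockdown replicates 1 to 4, against 905, 901, 868 and 872 in control shRNA replicates 1 to 4. The groups were well apart and each was tight. The log2 fold change was 0.35 with a standard error of 0.0421 (limma, adjusted p = 5.35e-10), a rise of 27.0%. With library totals the log2 fold change was 0.24.

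Both inhibitors are themselves induced by BMP signalling. SMAD6 (ENSG00000137834, plus strand of chromosome 15, bases 66702228 to 66782848) encodes an inhibitory SMAD that blocks the type I receptors and SMAD1. It had 107, 94.95, 114 and 94.4 normalized counts in NAT10 knockdown replicates 1 to 4, against 264, 213, 196 and 199 in control shRNA replicates 1 to 4. The lowest control library stood well above the highest NAT10 knockdown library. SMAD6 fell to 47.0% of the control level, a log2 fold change of -1.08 with a standard error of 0.0962 (limma, adjusted p = 4.68e-14). It therefore went in the direction opposite to ID1 and BMP4.

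BAMBI (ENSG00000095739, plus strand of chromosome 10, bases 28677342 to 28682939) encodes a pseudoreceptor that has no kinase domain and blocks signalling by TGF-beta family receptors. It had 518, 533, 536 and 535 normalized counts in NAT10 knockdown replicates 1 to 4, against 477, 493, 517 and 457 in control shRNA replicates 1 to 4. The lowest NAT10 knockdown value, 517.8, and the highest control value, 517.1, were almost the same. The log2 fold change was 0.13 with a standard error of 0.0539 (limma, adjusted p = 0.0341). The call was lost with library totals (log2 fold change 0.020, adjusted p = 0.768), with DESeq2 on recovered reads (adjusted p = 0.0788), and without any one of NAT10 knockdown replicates 2, 3 or 4 or control shRNA replicates 1 or 4, with adjusted p from 0.0553 to 0.133. Over 16 alternatives its adjusted p ran from 0.0158 to 0.768 (limma, edgeR and DESeq2 fits).

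**Figure D2:**
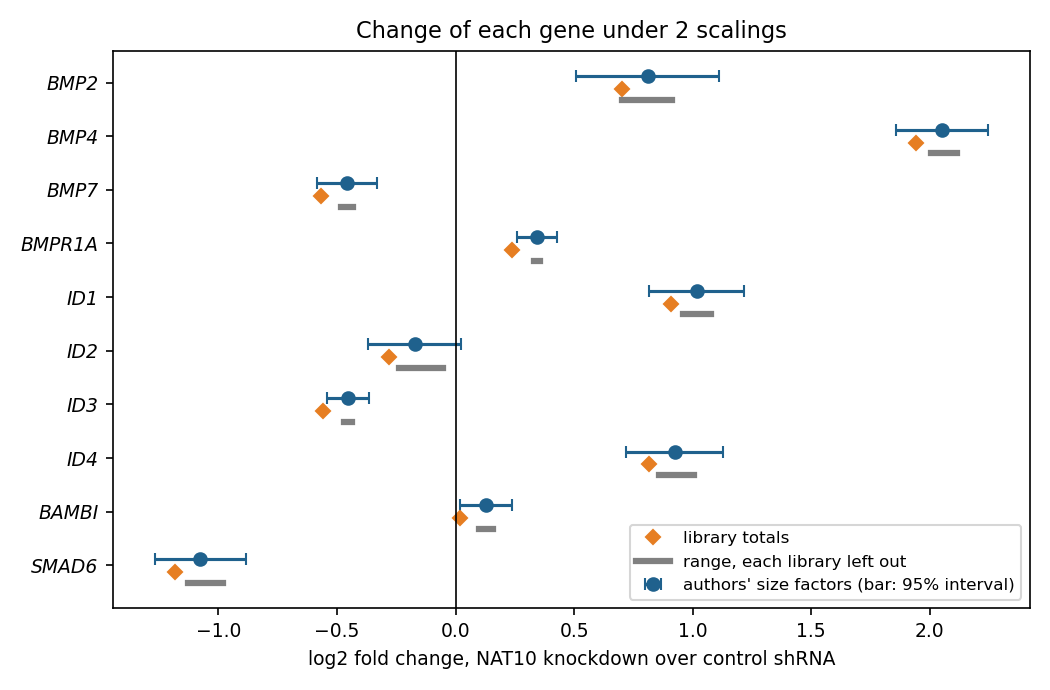
Log2 fold change of each gene, NAT10 knockdown over control shRNA (horizontal axis), with the size factors of the authors (blue circles, bars are 95% intervals) and with library totals (orange diamonds); grey bars give the range when each of the 8 libraries was left out. BMP4 is farthest right at 2.05 and SMAD6 farthest left at -1.08, and the library-total value of BAMBI lies at 0.020.

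The ID family held the most abundant of the 10 transcripts, and its members moved in both directions. ID1 (ENSG00000125968, plus strand of chromosome 20, bases 31605283 to 31606515) had 1920, 1622, 2070 and 1801 normalized counts in NAT10 knockdown replicates 1 to 4, against 963, 811, 891 and 994 in control shRNA replicates 1 to 4. All NAT10 knockdown libraries were higher than all control libraries, with replicate 2 the lowest of each group. The means were 1853 ± 189 in NAT10 knockdown and 915 ± 81.7 in control shRNA (SD, n = 4 each), a log2 fold change of 1.02 with a standard error of 0.0868 (limma, adjusted p = 5.73e-06). ID4 (ENSG00000172201, plus strand of chromosome 6, bases 19837386 to 19840684) had 195, 166, 178 and 143 normalized counts in NAT10 knockdown replicates 1 to 4, against 97.6, 84.2, 85.2 and 88.6 in control shRNA replicates 1 to 4. Its groups did not overlap either, and its log2 fold change was 0.92 with a standard error of 0.102 (limma, adjusted p = 3.26e-11).

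ID3 (ENSG00000117318, minus strand of chromosome 1, bases 23557918 to 23559794) had 806, 768, 757 and 775 normalized counts in NAT10 knockdown replicates 1 to 4, against 1098, 1022, 1045 and 1085 in control shRNA replicates 1 to 4. All NAT10 knockdown libraries were below all control libraries. ID3 fell by 0.45 on the log2 scale with a standard error of 0.0440 (limma, adjusted p = 7.49e-13). ID2 (ENSG00000115738, plus strand of chromosome 2, bases 8678845 to 8684453) had 158, 113, 168 and 149 normalized counts in NAT10 knockdown replicates 1 to 4, against 168, 154, 156 and 178 in control shRNA replicates 1 to 4. The groups overlapped, and NAT10 knockdown replicate 2 was the lowest. Its log2 fold change was -0.17 with a 95% interval of -0.37 to 0.024 (limma, adjusted p = 0.119). With library totals it was -0.28 (adjusted p = 0.0108), without NAT10 knockdown replicate 3 it was -0.24 (adjusted p = 0.0374), and without NAT10 knockdown replicate 2 it was -0.053 (adjusted p = 0.640). The antisense gene ID2-AS1 shares 38 exon bases with ID2. It had no row in the table, and since the strand setting of the counting is not given, reads of the 2 genes could not be told apart there.

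Per kilobase, ID1 made up 72.4% ± 1.65 of the summed ID level in NAT10 knockdown and 51.3% ± 1.41 in control shRNA (SD, n = 4 each). ID3 made up 20.9% ± 1.74 in NAT10 knockdown and 40.96% ± 1.35 in control shRNA (SD, n = 4 each). The ratio of ID1 to ID3 was 3.48 ± 0.376 in NAT10 knockdown and 1.253 ± 0.0751 in control shRNA (SD, n = 4 each), a ratio that no scaling between libraries can alter. It does rest on the exon lengths, 1233 bases for ID1 and 1797 for ID3. In normalized counts with no length correction, ID3 was above ID1 in all 4 control libraries, with means of 1062 and 915. In NAT10 knockdown ID1 was above ID3 with or without the correction. The summed ID level was 2074 ± 169 normalized counts per kb in NAT10 knockdown and 1446 ± 91.7 in control shRNA (SD, n = 4 each).

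**Figure D3:**
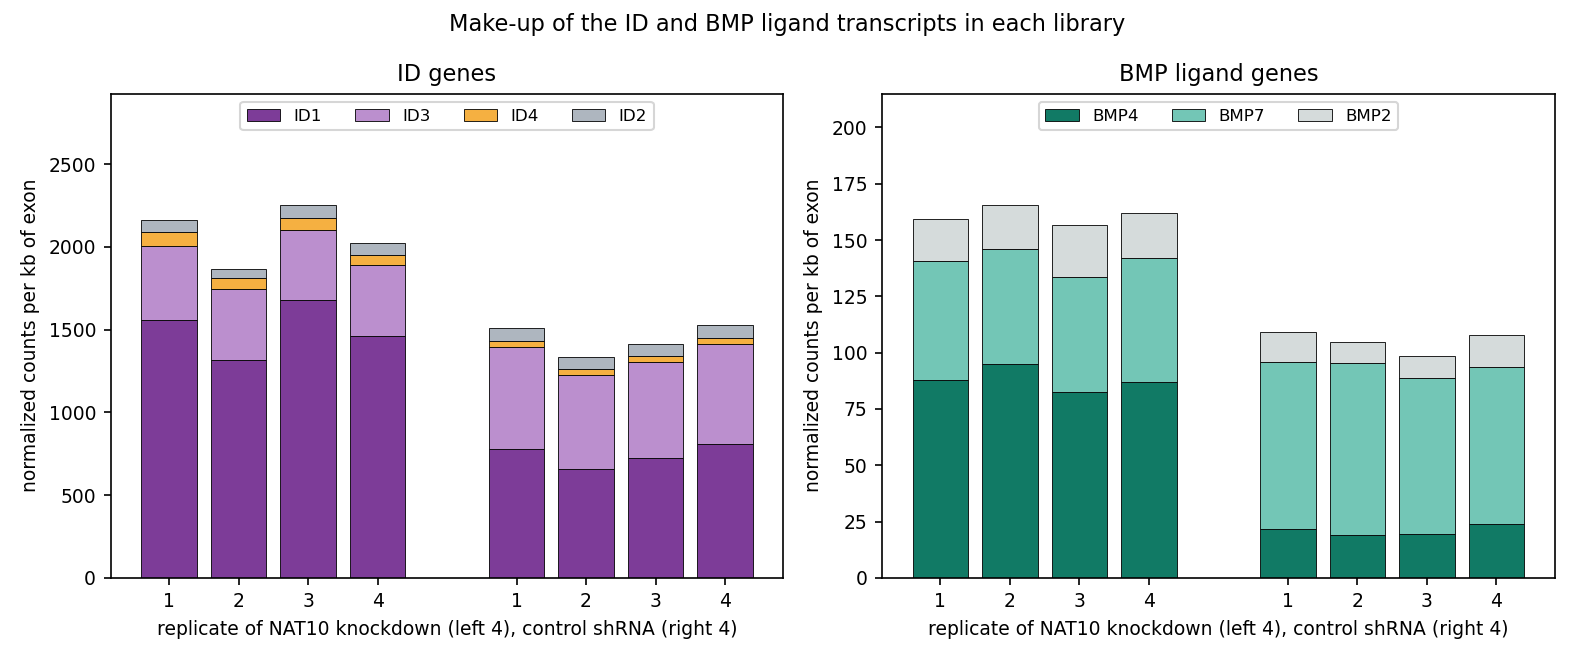
Normalized counts per kb of exon (vertical axes) of the ID genes (left panel) and of the 3 BMP ligand genes (right panel), stacked in each library, with the 4 NAT10 knockdown libraries to the left of the 4 control shRNA libraries. ID1 fills 72.4% of the ID bars on average in NAT10 knockdown and 51.3% in control shRNA, and BMP4 fills 54.7% of the ligand bars in NAT10 knockdown and 20.04% in control shRNA.

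The order of the 10 levels per kb also differed between the groups. In NAT10 knockdown it ran ID1 (1503 ± 153), ID3 (432 ± 11.8), BAMBI (229 ± 3.75), BMPR1A (98.7 ± 1.87), BMP4 (88.1 ± 5.25), ID4 (72.7 ± 9.31), ID2 (66.6 ± 10.7), BMP7 (52.6 ± 1.96), BMP2 (20.3 ± 1.94) and SMAD6 (11.98 ± 1.11 normalized counts per kb, SD, n = 4). In control shRNA it ran ID1 (742 ± 66.3), ID3 (591 ± 19.7), BAMBI (210.0 ± 10.9), BMPR1A (77.7 ± 1.69), ID2 (74.4 ± 5.15), BMP7 (72.3 ± 3.62), ID4 (37.9 ± 2.61), SMAD6 (25.5 ± 3.67), BMP4 (21.1 ± 2.30) and BMP2 (11.6 ± 2.54 normalized counts per kb, SD, n = 4). Neighbours whose libraries overlapped were BMP4 and ID4, ID4 and ID2, and ID2 and BMP7 in NAT10 knockdown, and BMPR1A and ID2, ID2 and BMP7, and SMAD6 and BMP4 in control shRNA. BMP4 thus stood among the middle of the 10 in NAT10 knockdown and next to last in control shRNA. The order rests on the exon lengths as well: with no length correction ID3 was above ID1 in control shRNA.

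The ID genes share an upstream pathway, and their promoters are described here. Whether promoter letters bear on the changes was not tested. The bases before the RefSeq start site (GRCh38.p14, whose chromosome coordinates are those of hg38) were searched for 5 short motifs on both strands in windows of 250 bases, and 8 of the 10 genes had an entry; BMP2 and BMP7 had none. The motifs were GTCT, the short element bound by SMAD4; GGCGCC and GCCGNCGC, GC-rich letters bound by SMAD1 and SMAD5; CCAAT, the NF-Y box; and TATAAA, the TATA box. GGCGCC and GCCGNCGC can overlap. The promoters of the 2 ID genes that rose follow in full, 5′ to 3′ on the gene's strand and ending at the base before the start, with every match in capitals. The first lies at chr20:31605039-31605288 (plus strand) and the second at chr6:19837120-19837369 (plus strand).
ID1: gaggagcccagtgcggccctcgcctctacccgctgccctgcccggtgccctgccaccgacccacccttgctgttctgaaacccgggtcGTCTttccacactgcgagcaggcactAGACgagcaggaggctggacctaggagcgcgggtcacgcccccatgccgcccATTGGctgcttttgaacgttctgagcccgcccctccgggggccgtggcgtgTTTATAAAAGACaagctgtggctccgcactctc
ID4: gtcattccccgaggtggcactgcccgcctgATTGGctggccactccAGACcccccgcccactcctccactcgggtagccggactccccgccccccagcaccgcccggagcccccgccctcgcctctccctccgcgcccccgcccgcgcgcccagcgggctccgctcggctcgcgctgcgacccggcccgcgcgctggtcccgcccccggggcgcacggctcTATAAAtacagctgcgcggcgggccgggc

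Both windows held TATAAA close to the start, from base 31 to base 26 before it in ID1 and from base 29 to base 24 in ID4, and both held 1 CCAAT. The ID1 window held TATAAA on the 2 strands, in overlapping letters. CCAAT was also found 3 times in the ID2 window, once in that of BAMBI and not in that of ID3. Outside the ID genes, the BMPR1A window held TATAAA at 1 place. TATAAA was found in 10.7% and CCAAT in 32.01% of 35116 windows of the same length in the table. The windows of ID2 and ID3, which did not rise, held no TATAAA. Only exact letters were counted, and both held near matches close to the start, gataaa in ID2 and tataag in ID3. However, 202 of the 250 bases of the ID2 window and all 250 of the ID3 window lie within exons that GENCODE annotates for the same gene, against 6 in ID1 and 0 in ID4, so for ID2 and ID3 the window does not lie wholly before the annotated transcripts. The ID2 and ID3 windows each held 1 GTCT facing its reverse complement AGAC, with 4 bases between them in ID2 and 8 bases in ID3. These stretches are shown because they are the only GTCT matches of those windows, at chr2:8681953-8681964 (plus strand) and chr1:23559644-23559659 (minus strand).
ID2: GTCTtgatAGAC
ID3: GTCTtcggcgtcAGAC

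GTCT was common, being found in 77.5% of all windows, so its presence in each of the ID genes, in BAMBI and in SMAD6 is near the background. The window of BAMBI held GGCGCC at 3 places and GCCGNCGC at 1 place, where 16.4% and 12.9% of all windows held at least 1. The GCCGNCGC match overlaps 1 of the GGCGCC matches. G and C made up 81.2% of this window, which makes such letters more likely. Of its 250 bases, 179 lie within exons that GENCODE annotates for BAMBI. A pair of the BAMBI sites lies at chr10:28677312-28677330 (plus strand), shown for its repeated letters.
BAMBI: GGCGCCccagccgGGCGCC

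No window of an ID gene held GGCGCC, and none of the 3 start sites of BMP4 held TATAAA. A match of letters is a description only, and elements farther from the start were not searched.

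The other genes of the pathway showed mixed changes as well. Of 69 further genes listed by role, 48 were measured; 17 were higher, 13 were lower and 18 did not pass in NAT10 knockdown, or 62.5% called, against 64.7% of all genes. Their median log2 fold change was 0.037, against 0.0013 over all genes. With library totals 13 were higher and 18 lower. The lists by role held 3 to 12 measured genes each, against a background of 32.3% higher and 32.4% lower over all genes, and no direction of a list is read from their counts. Since the table holds only genes with at least 10 reads in at least 4 libraries, members of a list that are absent from it were not analysed here. Genes such as ACVRL1, HJV, BMP8A, BMP8B, GATA2 and GATA3 reached that limit only with the libraries of the group where they were higher. Their presence depends on the difference itself, so neither their tests nor the counts that include them are read as support.

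Of 11 remaining ligand genes 4 were measured, all at low levels; 3 were lower and 0 higher (median log2 fold change -0.90). BMP6, a ligand of the BMP7 subgroup, averaged 20.2 ± 3.59 normalized counts in NAT10 knockdown and 66.1 ± 5.25 in control shRNA (SD, n = 4 each; log2 fold change -1.67, limma adjusted p = 3.65e-12). BMP8A and BMP8B changed by -0.96 and -0.84 on the log2 scale (limma, adjusted p = 0.00174 and 0.00372). These are near-identical neighbouring copies, so the split of reads between them is uncertain and they are not separate observations. GDF7 averaged 8.43 ± 2.78 normalized counts in NAT10 knockdown and 9.23 ± 3.66 in control shRNA (SD, n = 4 each; limma adjusted p = 0.834). Of the ligand genes measured, BMP4 and BMP2 were thus the ones that rose.

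Of 10 receptors and co-receptors, all measured, 2 were higher and 5 lower (median log2 fold change -0.096), or 1 and 6 with library totals. ACVRL1, a type I receptor best known from endothelial cells, had 0, 2, 2 and 1 reads in NAT10 knockdown replicates 1 to 4, against 15, 12, 13 and 14 in control shRNA replicates 1 to 4 (limma, adjusted p = 3.57e-07). At so few reads its fitted log2 fold change depends on the pseudocount and lay between -3.36 and -1.54 over 15 alternatives. ACVRL1 reached the limit of 10 reads only in control shRNA, so it could be measured only because control was high. HJV, also among the lower, had 4, 4, 8 and 4 reads in NAT10 knockdown, against 20, 11, 13 and 10 in control shRNA, in replicate order. It too reached the limit only in control shRNA. Neither the p-value of ACVRL1 nor the place of either gene among the lower receptors is read as support for a fall. The co-receptor ENG changed by -0.38, and the repulsive guidance molecules RGMA and RGMB, which act as BMP co-receptors, by -0.19 and -0.32 on the log2 scale (limma, adjusted p = 0.000158, 0.000395 and 0.000468). BMPR1B, another type I BMP receptor, named after its value was seen, averaged 27.9 ± 6.27 normalized counts in NAT10 knockdown and 15.3 ± 1.74 in control shRNA (SD, n = 4 each; log2 fold change 0.81, limma adjusted p = 0.00155).

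Among 10 SMAD transducers and inhibitors 6 were higher and 2 lower (median log2 fold change 0.16), or 4 and 3 with library totals, with changes between -0.62 and 0.42. SMAD1, a transducer of BMP signals, averaged 597 ± 27.8 normalized counts in NAT10 knockdown and 447 ± 25.3 in control shRNA (SD, n = 4 each; log2 fold change 0.42, limma adjusted p = 4.45e-09). The shared partner SMAD4 rose by 0.25, the ubiquitin ligase SMURF1, which marks SMAD1 and SMAD5 for degradation, by 0.27, and LEMD3, an inner nuclear membrane protein that binds SMADs and dampens their signal, by 0.33 on the log2 scale (limma, adjusted p = 2.22e-06, 1.10e-06 and 9.87e-09). The other transducers of BMP signals, named after their values were seen, were lower. SMAD5 averaged 957 ± 63.2 normalized counts in NAT10 knockdown and 1143 ± 52.0 in control shRNA (SD, n = 4 each; log2 fold change -0.26, limma adjusted p = 2.77e-06), and SMAD9 averaged 22.3 ± 3.39 in NAT10 knockdown and 34.7 ± 4.33 in control shRNA (SD, n = 4 each; log2 fold change -0.62, limma adjusted p = 0.00462).

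Of 16 extracellular antagonists and modulators 12 were measured, 4 were higher and 2 lower (median log2 fold change 0.21). CER1, a secreted binder of BMP and Nodal ligands, averaged 949 ± 44.7 normalized counts in NAT10 knockdown and 125 ± 9.80 in control shRNA (SD, n = 4 each; log2 fold change 2.92, limma adjusted p = 1.61e-38). FST, which binds activins and some BMPs, averaged 203 ± 10.6 normalized counts in NAT10 knockdown and 115 ± 20.5 in control shRNA (SD, n = 4 each; log2 fold change 0.83, limma adjusted p = 2.38e-10). NBL1, a DAN family BMP antagonist, rose by 0.52 on the log2 scale (limma, adjusted p = 1.77e-08). BMPER, which binds BMPs and can inhibit or promote their signal, averaged 19.4 ± 6.06 normalized counts in NAT10 knockdown and 67.7 ± 10.46 in control shRNA (SD, n = 4 each; log2 fold change -1.79, limma adjusted p = 1.80e-11). CHRDL1, a chordin-like BMP antagonist named after its value was seen, changed by -0.35 on the log2 scale (limma, adjusted p = 6.15e-06), so ligand binders were found on both sides.

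Among proteases that cut BMP precursors or the antagonist chordin, 5 of 6 were measured, 2 were higher and 0 lower (median log2 fold change 0.048), or 2 and 2 with library totals. PCSK5, a proprotein convertase, averaged 1004 ± 39.0 normalized counts in NAT10 knockdown and 500.3 ± 18.5 in control shRNA (SD, n = 4 each; log2 fold change 1.004, limma adjusted p = 3.13e-24), and FURIN rose by 0.22 (limma, adjusted p = 9.84e-06). PCSK6 and the chordin protease BMP1 had log2 fold changes of -0.22 and -0.11 (limma, adjusted p = 0.156 and 0.269), and with library totals -0.33 and -0.22 (adjusted p = 0.0346 and 0.0264).

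Of 13 other transcription factor genes known to be induced by BMP, 4 were measured, 2 were higher and 0 lower (median log2 fold change 0.58), all at low levels. GATA3 had 24.7, 25.5, 29.5 and 29.7 normalized counts in NAT10 knockdown replicates 1 to 4, against 4.83, 4.96, 4.79 and 13.5 in control shRNA replicates 1 to 4 (log2 fold change 1.94, limma adjusted p = 5.56e-08). GATA2 averaged 13.5 ± 3.42 normalized counts in NAT10 knockdown and 5.58 ± 1.22 in control shRNA (SD, n = 4 each; log2 fold change 1.14, limma adjusted p = 0.00212). GATA2 had 13, 12, 18 and 10 reads in NAT10 knockdown and 6, 6, 7 and 4 in control shRNA, in replicate order. Both GATA genes reached the limit of 10 reads in 4 libraries only with the NAT10 knockdown libraries. Their tests, and the counts and median of this list, are thus not read as support for a rise. MSX2 and HEY1 had log2 fold changes of 0.018 and 0.0014 (limma, adjusted p = 0.965 and 0.995). The trophoblast and amnion markers KRT7 and GABRP, measured with GATA3 as 3 of 9 on that marker list, did not rise: KRT7 averaged 79.0 ± 12.4 normalized counts in NAT10 knockdown and 87.4 ± 13.5 in control shRNA (SD, n = 4 each; limma adjusted p = 0.327), and GABRP fell by 0.61 on the log2 scale (limma, adjusted p = 4.88e-08). Summed over the measured markers, that list came to 14.0 to 16.3 CPM in NAT10 knockdown and 18.2 to 23.2 CPM in control shRNA, and CDX2, HAND1, ISL1, CGA, CGB5 and VTCN1 were not among the genes of the table.

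The E proteins, which ID proteins bind, moved little. TCF3 averaged 5632 ± 177 normalized counts in NAT10 knockdown and 5080 ± 183 in control shRNA (SD, n = 4 each; log2 fold change 0.15, limma adjusted p = 8.87e-05), a call lost with library totals (log2 fold change 0.040, adjusted p = 0.276). TCF12 changed by -0.11 on the log2 scale (limma, adjusted p = 0.0119), a call lost without NAT10 knockdown replicate 1 (adjusted p = 0.0610). TCF4 had a log2 fold change of -0.045 (limma, adjusted p = 0.343), and -0.15 with library totals (adjusted p = 0.000976).

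**Figure D4:**
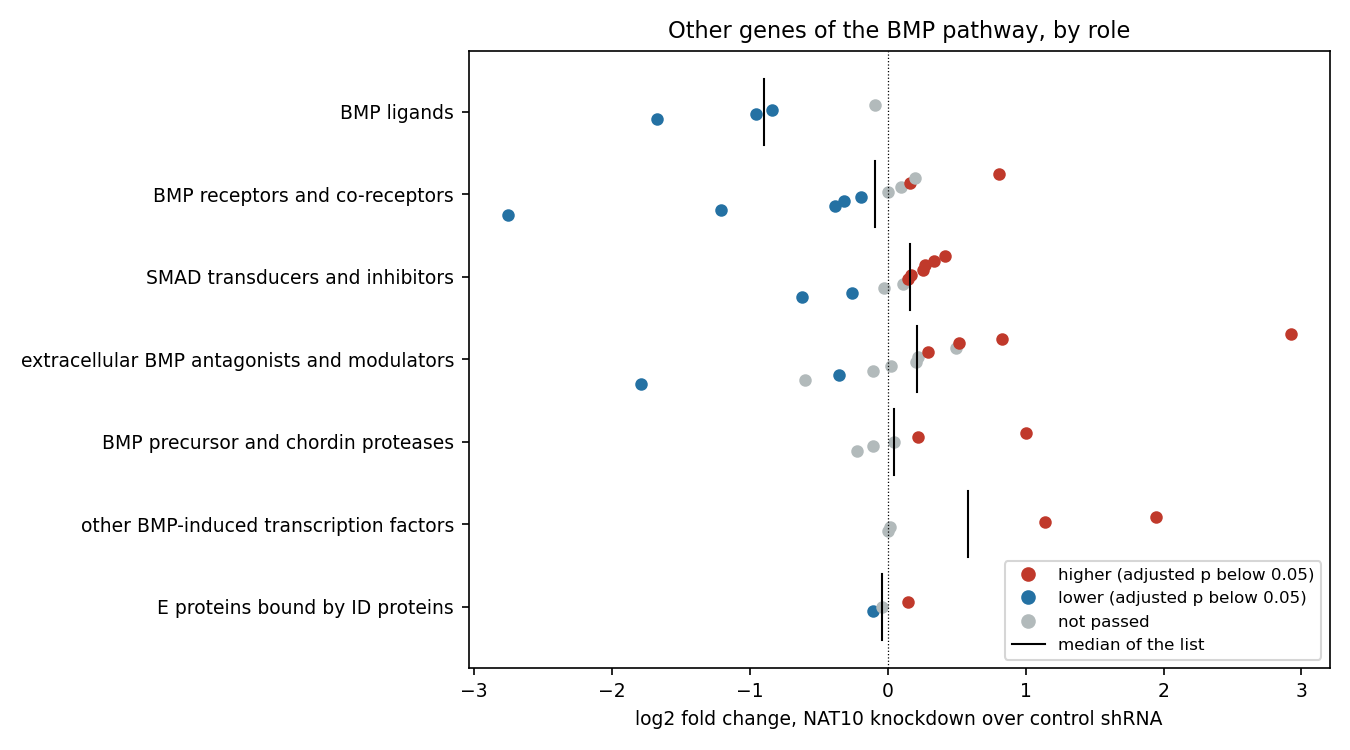
Log2 fold change, NAT10 knockdown over control shRNA (horizontal axis), of the 48 measured pathway genes by role; red points passed as higher, blue points passed as lower, grey points did not pass, and the black line is the median of each list. CER1 lies farthest right at 2.92. ACVRL1, which reached the read limit only in control shRNA, lies farthest left at -2.76. The lists of receptors and of SMAD genes hold both red and blue points.

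Markers of other cell types moved in some of the same libraries. Of 8 fibroblast markers 4 were measured and 3 were higher, where 32.3% of all genes were higher and 32.4% lower. Their summed levels were 779 to 874 CPM in NAT10 knockdown and 586 to 628 CPM in control shRNA. COL1A1 was the most abundant of them, and PDGFRB did not pass (log2 fold change -0.095, limma adjusted p = 0.0900). DCN, LUM, COL3A1 and FAP were not among the genes of the table. Of the 12 human embryonic stem cell markers, 9 were also higher and 0 lower. Of 6 neuroectoderm markers 3 were measured, with 2 higher and 1 lower. Summed levels of these were 12.3 to 15.9 CPM in NAT10 knockdown and 12.8 to 15.8 CPM in control shRNA. PAX6, 1 of the 2 higher, averaged 25.1 ± 2.05 normalized counts in NAT10 knockdown and 2.42 ± 0.964 in control shRNA (SD, n = 4 each). It reached the read limit only with the NAT10 knockdown libraries. Neither its call nor the count of 2 higher is thus read as support for a rise. MIXL1, the 1 measured of 8 primitive streak, mesoderm and endoderm markers, was at 3.87 to 5.83 CPM in NAT10 knockdown and 2.12 to 2.37 CPM in control shRNA. In these bulk libraries fewer cells of a type and less RNA per cell cannot be told apart, and the part of such cells in the changes of BMP4, ID1, ID3 and SMAD6 was not tested.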

How the data were processed

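Gene-level values of 8 libraries of H1 cells, 4 NAT10 knockdown and 4 control shRNA, were used; groups and replicate numbers came from the titles. The submitters' processing notes list, with the hg38 build, DESeq2 1.26.0, featureCounts 2.0.3, HISAT2 2.2.1, fastp 0.21.1 and SAMtools 1.12. The annotation, and whether counting used strand, is not given in the sources used here. What the authors deposited, under headers that say read counts, is a signal (reads per gene over a size factor): 100% of values in each library were whole multiples of 1 step within 1e-06 of a read. Recovered totals were 15574631 to 16305014 reads; a count of 0 allows up to 0.193 CPM (3 counts, counting error only). Such scaling is right only if changes in most genes cancel out.

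The test was limma 3.58.1 (trended, robust) in R 4.3.3 on log2(value + 1), group as the only term, with a Benjamini-Hochberg threshold of 0.05 across 17546 genes. Log2 fold changes of this test use this log2 scale, which understates changes of low genes. Changes given as fold, as percent of the control level or as a percent rise are ratios of the mean normalized counts. For each of the 10 genes a two-sided exact permutation test of the group means was also run: p = 0.257 for ID2 and 0.0286 for the other 9, the smallest p that 4 against 4 can give. The limma, edgeR and DESeq2 fits were tested on simulated data. Each library counted as 1 sample. For pairs of libraries, chi-square per gene was 1.79 to 2.52 inside a group and 28.1 to 29.1 across groups. This measure sets spread against counting error and cannot show whether replicates were grown separately. Alternatives were edgeR 4.0.16 and DESeq2 1.42.0 on the recovered reads, library totals, TMM, pseudocounts of 0.5 and 5, a minimum mean of 50, a replicate block and leaving out each library. Coordinates and exon lengths came from GENCODE release 29 (GRCh38, the build of hg38), promoters from RefSeq (GRCh38.p14). Members, lists and the rule for naming genes (the 10 genes, NAT10, the 4 smallest adjusted p of each list, the 3 genes most like BMP4) were chosen with earlier results of these data known; marker genes were named after their values were seen.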

Additional observations from a re-analysis of the deposited data

Results flagged for a closer look

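In 4 of 76 sets of 4 libraries, 1 library stood apart from the other 3 by Dixon's criterion, where chance gives about 1 in 20. All 4 were control shRNA libraries. SMURF1 was lowest in control replicate 3, at 739 normalized counts. SMAD4 was highest in control replicate 3, at 856. PCSK6 was highest in control replicate 3, at 76.6. GATA3 was highest in control replicate 4, at 13.5. None of the 10 BMP and ID genes was among them.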

How the results depend on the processing

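BMP2, BMP4, BMP7, BMPR1A, ID1, ID3, ID4 and SMAD6 kept their direction and passed under all 16 alternatives. Their log2 fold changes ranged from 1.94 to 2.12 for BMP4, 0.91 to 1.08 for ID1, 0.82 to 1.01 for ID4, 0.70 to 0.91 for BMP2 and 0.24 to 0.36 for BMPR1A, and from -0.57 to -0.43 for BMP7, -0.56 to -0.44 for ID3 and -1.18 to -0.98 for SMAD6. BAMBI did not pass with library totals (0.020; ratio of means 1.01, exact permutation p = 0.629) or DESeq2 (0.13), and ID2 passed with library totals (-0.28). With each library left out, BAMBI ranged from 0.0996 to 0.16 and ID2 from -0.24 to -0.053. Among genes with a mean of at least 50 normalized counts, 6 other pathway genes were lower, against 13 without that filter; 30 of the 48 were then tested. The cause of the other shifts was not tested.

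Same-numbered libraries of the groups did not vary together: the 4 correlations of their deviations from the group means lay between -0.10 and -0.0076, so the numbers do not pair them. With the replicate block 6 of the 10 genes were higher and 3 lower, and over all genes 5592 were higher and 5625 lower, against 5667 and 5680 without it.

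Genes under 10 reads in most libraries could not be assessed, and lists with few measured members, such as the ligands and the induced transcription factors, rest on low counts.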
